A study of Mus musculus with 4 samples.

Results

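The olfactory receptor (Olfr) gene clusters of the mouse genome were followed through chromatin contact libraries of a lung fibroblast line, a cell type in which these receptors have no known sensory role. Members were the 1128 autosomal protein-coding genes of GENCODE M21 whose symbol starts with Olfr, out of 20807 autosomal protein-coding genes, and genes whose transcription start sites (TSS) lay at most 200 kb apart were joined. The joining gave 60 clusters on 17 of the 19 autosomes with a summed length of 28.8 Mb, or 1.19% of the 10-kb bins of the autosomes. Of the 60 clusters, 13 held 1 gene and 34 held at least 5. The 23 clusters of at least 10 genes held 1000 genes, or 88.7% of the family, and had a median length of 851 kb. In the counts below, ends fell in the clusters at a lower rate than over their chromosome, no Olfr TSS carried an enriched region of H3K4me3 (trimethylation of lysine 4 of histone H3, a mark of active and poised promoters), and clusters far apart on a chromosome or on different chromosomes met more often than coverage and distance gave.

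Odorant receptors are G protein-coupled receptors that bind volatile molecules on the cilia of sensory neurons in the nose. Their genes have short coding exons and stand in tandem arrays made by repeated gene duplication. In each mature olfactory neuron a single receptor allele is transcribed, and the silent arrays are packed into heterochromatin marked by trimethylated lysine 9 of histone H3 that gathers from several chromosomes. Outside the nose the arrays are generally silent, and they lie in AT-rich, late-replicating, lamina-associated parts of the genome. No repressive mark was measured here, so silence can be read only as a lack of H3K4me3.

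The study used HiChIP, in which chromatin is crosslinked, cut with MboI and religated so that neighbouring fragments join, and joined fragments bound to H3K4me3 are then precipitated and sequenced from both ends. All 4 libraries came from MLg, an established mouse lung fibroblast line, with 1 library per condition. Cells were Control, labelled WT, TGFB1 (human recombinant TGFB1 at 5 ng/ml for 4 h), TGFB1+miR-9-LOF (the same treatment with an antagomiR against miR-9, LOF standing for loss of function) and miR-9-LOF (that antagomiR alone). AntagomiRs were used at 60 nM, cells were harvested 24 h after transfection, and TGFB1 was added after 20 h. By the study's text the Control and TGFB1 cells received a control antagomiR, also at 60 nM, although the labels of these libraries name none. A single line with a single library per condition leaves no replicate error, so libraries are set side by side without a test between conditions.

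Libraries held 15359978 (Control), 10864558 (TGFB1), 14121095 (TGFB1+miR-9-LOF) and lastly 15568047 (miR-9-LOF) valid pairs, and 13148144, 9349493, 12058489 and 12617104 of these joined autosomal positions where neither end mapped with a quality under 30. The share of ends in H3K4me3-enriched regions was 9.98%, 7.18%, 4.20% and 4.92% in the same order, so Control had the largest share. Values for single libraries are given in this order throughout. Of the fibroblast markers, 4 of 8 (Col1a1, Pdgfra, Pdgfrb and Vim) had an enriched region within 2 kb of the TSS, where 38.2% of all autosomal coding genes had one, against 0 of 3 for epithelium, 0 of 2 for blood and 1 of 6 for olfactory neurons, the adenylyl cyclase gene Adcy3. The fibroblast collagen gene Col3a1 was among the 4 not called, with 15, 10, 11 and 8 ends within 1 kb of its annotated TSS. All intervals below are 95% intervals for counting error only.

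Sequences at RefSeq starts show the kind of DNA involved. The RefSeq promoter window, 250 bases before to 50 bases after the start in GRCm38.p6, is given for the Olfr gene with the most pair ends at its TSS (Olfr1415, chr1:92491704-92492003, minus strand), for a receptor studied in the nose (Olfr160, chr9:37712231-37712530, minus strand), for a receptor reported outside the nose, in sperm (Olfr16, chr1:172956518-172956817, plus strand), and, as a contrast, for Cbx5, which encodes the heterochromatin protein HP1 alpha (chr15:103239803-103240102, minus strand). Capitals mark CG dinucleotides (CpG), of which these windows held 1, 0, 2 and 29. The RefSeq start lay 4148, 3770, 6359 and 236 bases from the GENCODE start used for the counts, so the Olfr windows are not the positions whose ends were counted. The last 50 bases of the Olfr1415 window open with ATG, and an ATG also follows the RefSeq start in the Olfr160 and Olfr16 windows. These Olfr windows may thus lie at the start of a coding exon and not at a promoter, which was not tested.
Olfr1415: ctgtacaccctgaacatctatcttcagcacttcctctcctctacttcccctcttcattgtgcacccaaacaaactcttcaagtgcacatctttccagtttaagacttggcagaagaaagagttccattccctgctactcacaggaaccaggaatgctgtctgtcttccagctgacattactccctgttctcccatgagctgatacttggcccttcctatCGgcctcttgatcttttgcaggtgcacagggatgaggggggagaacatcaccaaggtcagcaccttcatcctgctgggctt
Olfr160: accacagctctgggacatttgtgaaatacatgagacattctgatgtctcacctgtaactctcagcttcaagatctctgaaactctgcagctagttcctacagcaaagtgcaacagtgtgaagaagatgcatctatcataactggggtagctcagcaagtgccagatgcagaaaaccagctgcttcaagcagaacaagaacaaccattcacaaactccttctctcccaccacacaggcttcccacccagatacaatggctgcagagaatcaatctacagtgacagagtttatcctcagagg
Olfr16: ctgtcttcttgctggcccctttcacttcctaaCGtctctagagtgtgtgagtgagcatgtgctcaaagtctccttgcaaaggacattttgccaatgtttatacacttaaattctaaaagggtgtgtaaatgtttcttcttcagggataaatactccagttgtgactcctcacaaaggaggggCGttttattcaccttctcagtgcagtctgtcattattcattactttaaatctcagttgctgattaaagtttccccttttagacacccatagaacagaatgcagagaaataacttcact
Cbx5: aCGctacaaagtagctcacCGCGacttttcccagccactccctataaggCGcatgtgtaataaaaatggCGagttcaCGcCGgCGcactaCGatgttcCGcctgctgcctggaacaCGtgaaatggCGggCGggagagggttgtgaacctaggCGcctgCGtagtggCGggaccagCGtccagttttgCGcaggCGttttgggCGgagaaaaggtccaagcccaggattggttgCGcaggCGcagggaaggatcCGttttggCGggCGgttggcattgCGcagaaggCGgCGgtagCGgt

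The same lack of CpG held across the family. Of the 1128 Olfr genes, 926 matched a RefSeq window, with a median GC content of 35.0% and a median of 1 CpG in 300 bases (range 0 to 13). The 14475 matched windows of other coding genes had medians of 58.3% and 17. The nearest RefSeq start was taken at any distance from the GENCODE start. The shares below may therefore set coding starts of Olfr genes against promoters of other genes, and how many windows do so was not counted. At least 10 CpG were found in 2 Olfr windows (0.216%) and in 65.4% of the others. The letters TAATTA, the core bound by homeodomain factors such as Lhx2, were found in 18.8% of the Olfr windows and in 4.47% of all 15699 windows. The letters TATAAA, searched on both strands, were found in 41.4% and 12.8%. The palindromic motif of Ebf factors, searched with its central bases free, was found in 5 Olfr windows (0.540%) and in 0.962% of all windows, too few to give a direction. Vmn windows shared the traits of the family, with a median of 1 CpG, TAATTA in 11.7% and TATAAA in 35.9% of 298 windows. The part of the lower GC content of the Olfr windows in these shares was not tested.

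Pair ends were sparse in the clusters. Ends per kb relative to the mean of the own chromosome were 0.454 in Control (95% exact Poisson interval 0.452 to 0.456), 0.476 in TGFB1 (0.474 to 0.479), 0.523 in TGFB1+miR-9-LOF (0.521 to 0.526) and 0.586 in miR-9-LOF (0.584 to 0.589), and 0.511 with the 4 libraries summed. The cluster level was lowest in Control, where the enriched regions held the largest share of ends. Relative to the own chromosome outside enriched bins the values were 0.529, 0.532, 0.558 and 0.632, and relative to bins of like GC content, also outside enriched bins, 0.681, 0.683, 0.698 and 0.764. The low level therefore remained below 1 in every library under both references, which were chosen after seeing the data. The clusters had a GC content of 38.9%, 2.79 MboI sites per kb and 6.48% to 9.58% of ends under the mapping quality limit, the last being highest in miR-9-LOF. As like parts of the genome, 52 clusters of vomeronasal receptor genes (Vmn1r and Vmn2r, 329 genes, joined by the same rule) lay lower, at 0.303 to 0.435. The 942 gene deserts, stretches of at least 500 kb between neighbouring coding TSS less 50 kb at each end, lay higher, at 0.652 to 0.766.

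Large and small clusters differed. All 23 clusters of at least 10 genes lay below their own chromosome in every library, with a median of 0.464 in the summed libraries. The fewest ends were in Olfr467 to Olfr519 on chromosome 7 (42 genes), at 0.284, 0.309, 0.359 and 0.398 in the 4 libraries. The most were in Olfr458 to Olfr47 on chromosome 6 (20 genes), at 0.814, 0.860, 0.859 and 0.927. Relative to bins of like GC content this cluster stood at 1.15 and Olfr1417 to Olfr1441 on chromosome 19 at 1.03, above 1, while the other clusters of this size stood below 1. The largest cluster, Olfr987 to Olfr1274-ps on chromosome 2 (chr2:85330779-90403897, 227 genes over 5073 kb), had a summed level of 0.360. The next largest had 0.351 (Olfr543 to Olfr649, chromosome 7, 95 genes), 0.512 (Olfr160 to Olfr986, chromosome 9, 95 genes), 0.510 (Olfr9 to Olfr827, chromosome 10, 60 genes), 0.517 (Olfr90 to Olfr136, chromosome 17, 49 genes), 0.486 (Olfr1442 to Olfr1505, chromosome 19, 44 genes), 0.338 (Olfr467 to Olfr519) and 0.389 (Olfr1275 to Olfr1318, chromosome 2, 39 genes). Among the 26 clusters of fewer than 5 genes the median was 0.823, and 10 lay above their chromosome. Over all 60 clusters, 48 lay below it. Olfr1416 to Olfr12 on chromosome 1, 8 genes over 147 kb, had a summed level of 1.74, and values between 1.70 and 1.79 in the 4 libraries.

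**Figure D1:**
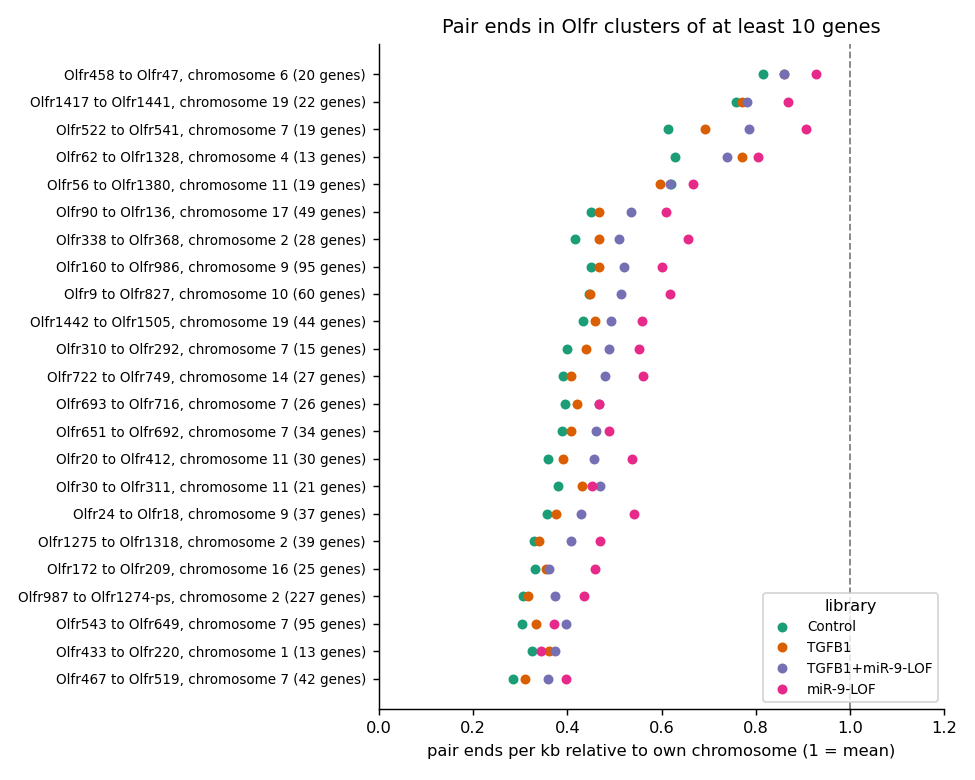
Pair ends per kb in each of the 23 Olfr clusters of at least 10 genes (rows, sorted by the summed level), relative to the mean of the own chromosome (horizontal axis, dashed line at 1), with a point for each library. Every point lies left of the dashed line, from 0.284 in Olfr467 to Olfr519 to 0.927 in Olfr458 to Olfr47, and Control is the lowest point for most clusters.

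The low level ended close to the cluster boundary. Across the 52 edges of the 26 clusters of at least 300 kb, the level within 160 kb inside the edge was 0.507, 0.532, 0.572 and 0.626 in the 4 libraries. In the first 40 kb outside it was 0.830, 0.809, 0.798 and 0.827, and from 40 to 200 kb outside it was 1.15, 1.11, 1.04 and 1.05. From 200 to 500 kb the summed level was 1.04. From 40 to 200 kb outside the libraries stood in the order of their share of ends in enriched regions, with Control highest, while inside Control was lowest and miR-9-LOF highest. The part of that share in these levels was not tested.

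**Figure D2:**
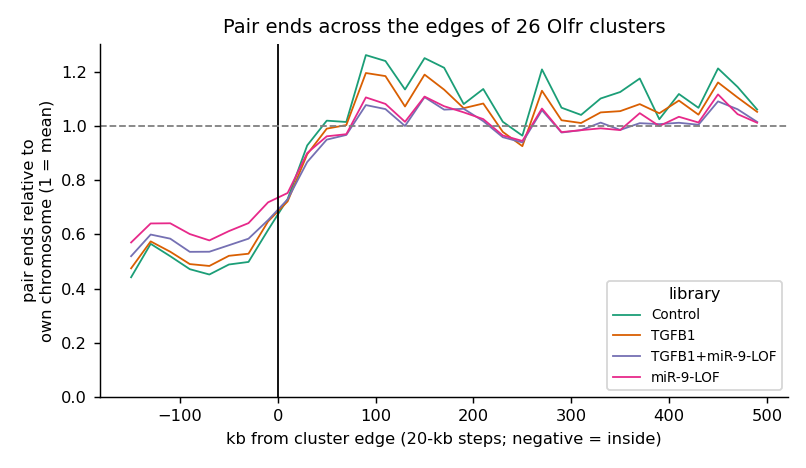
Mean level of pair ends relative to the own chromosome (vertical axis) by distance from the cluster edge (horizontal axis, kb in 20-kb steps, negative inside), over 52 edges, with a line for each library. All 4 lines run between 0.442 and 0.719 inside, rise across the edge and run between 0.926 and 1.26 from 40 kb outside.

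No Olfr gene had an H3K4me3-enriched region within 2 kb of its TSS. Enriched regions were 1-kb bins of the summed libraries with at least 4 times the ends of the chromosome mean and of the surrounding 100 kb, whichever was larger, at a false discovery rate of 0.01 by a one-sided Poisson test with Benjamini-Hochberg adjustment over all bins. By this rule 38.2% of all autosomal coding genes were called, with 0 of 1128 Olfr genes, 1 of 329 Vmn genes and 7951 of 19350 other coding genes (41.1%). At an unadjusted p under 0.05 by the same Poisson test the counts were 233 Olfr genes (20.7%) and 16117 other coding genes (83.3%). Here a gene counted if any 1-kb bin within 2 kb of its TSS passed, without the fold rule. Each gene thus had several bins to pass, and these shares cannot be set against the 0.05 of a single bin. The count remained 0 within 1 and within 5 kb of the TSS and without the mapping quality filter. With the surrounding 100 kb alone as background, which lets a gene in a sparse region pass at a low level, 20 Olfr genes were called against 39.8% of all coding genes, and the 20 had between 10 and 115 ends within 1 kb of the TSS in all libraries together. Without Control or without miR-9-LOF 1 Olfr gene was called, Olfr155, in the cluster Olfr70 to Olfr155 on chromosome 4, whose ends per kb were 1.96 times its chromosome's.

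The profile around the TSS was nearly flat. The level in the 3 bins around the Olfr TSS was 1.05, 1.11, 1.11 and 1.07 times that at 20 to 50 kb in the 4 libraries, against 3.72, 3.01, 2.16 and 2.42 times for other coding genes. In ends, the median Olfr gene had 10, 7, 11 and 12 within 1 kb of its TSS and the median other gene had 64, 41, 45 and 48. In the summed libraries 131 Olfr genes (11.6%) lay above their chromosome's mean, against 76.0% of other coding genes. Genes with no end there were 16 of the 1128 Olfr genes and a larger share of the other coding genes, at 603 of 19350.

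**Figure D3:**
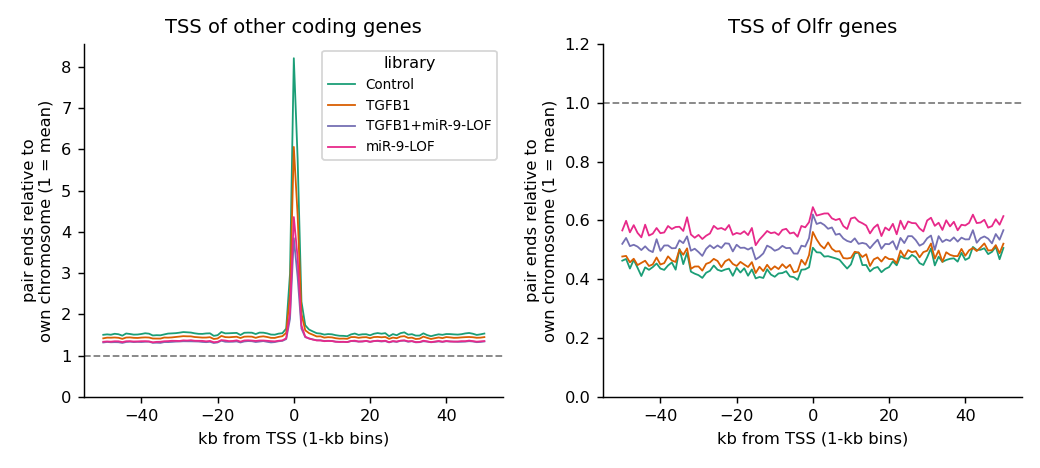
Pair ends in 1-kb bins relative to the own chromosome (vertical axes, which differ between the panels) by distance from the TSS in kb, as the mean over 19350 other coding genes (left) and 1128 Olfr genes (right), with a line for each library. Other coding genes peak at 3.85 to 8.21 at the TSS, and Olfr genes stay between 0.507 and 0.645 there.

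Enriched chromatin was far from most Olfr genes. The nearest enriched bin lay a median of 481 kb from an Olfr TSS (quartiles 182 and 927 kb), against 14.5 kb for other coding genes. Of the 1128 genes, 2 had one within 10 kb, 68 within 50 kb and 160 within 100 kb. The closest was Olfr98, 6.25 kb from a bin at H2-M3, a class Ib major histocompatibility gene embedded in the cluster Olfr90 to Olfr136. Inside the clusters 18 of 28858 1-kb bins were enriched (0.0624%, against 0.477% of all autosomal bins), and 14 of the 18 lay within 2 kb of the TSS of another coding gene, among them Vwa5a, Ilvbl, Syde1, Zfp62, Mgat1, Zkscan3, Zscan26, H2-M3, Patl1, and Lpxn with Zfp91. The clusters held 84 such TSS, of which 11 were enriched, a lower share than the 38.2% of all autosomal coding genes.

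The Olfr genes with the most ends still lacked an enriched region. Olfr1415 on chromosome 1 had 107, 95, 127 and 117 ends within 1 kb of its TSS in the 4 libraries, or 5.31 times its chromosome's mean in the summed libraries. Olfr157 on chromosome 4 had 66, 56, 69 and 63 ends (4.34 times). Olfr1412 and Olfr1410, in the same cluster as Olfr1415, had 67, 46, 59 and 68 and 49, 46, 68 and 62 ends. Olfr455 on chromosome 6 had 70, 49, 59 and 56. In 4 of these 5 genes Control did not hold the highest count, unlike Cbx5, where Control had 763 ends against 385, 266 and 302.

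Receptors with reported roles outside the nose had few ends too. Olfr78, which responds to short-chain fatty acids in blood vessels and the carotid body, had 10, 13, 12 and 9 ends, and its neighbour Olfr558 had 11, 4, 10 and 14. Olfr16, reported in sperm, had 6, 8, 12 and 10, and Olfr2 had 9, 1, 9 and 8. Olfr544 had 25, 18, 29 and 34 ends, 1.37 times its chromosome's mean and the highest of the 5. Receptors much used in studies of the nose had 10, 4, 8 and 12 (Olfr17), 9, 13, 9 and 10 (Olfr160), 4, 1, 1 and 5 (Olfr1507) and 9, 4, 12 and 10 ends (Olfr73). None of the 9 met the rule for an enriched region. Olfr544 lay above the median Olfr gene in every library and Olfr1507 below it.

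Fixed lists of genes linked to the receptors in the nose are read here beside the 38.2% of all coding genes called. Whether each gene silences or activates the arrays was not tested, and Kdm1a, a demethylase, stands among silencing factors by the list only. Of 10 genes listed as silencing factors, 6 had an enriched region at the TSS. They were Cbx5 and Cbx3 (heterochromatin proteins), Setdb1 and Ehmt2 (histone H3 lysine 9 methyltransferases), Kdm1a (a histone demethylase) and Lbr (the lamin B receptor). Kdm1a had 219, 108, 94 and 103 ends within 1 kb. The 4 not called were Ehmt1, Suv39h2, Cbx1 and Trim28, of which Cbx1 had 239, 134, 83 and 114 ends and Ehmt1 had 3, 0, 0 and 2, counted at the outermost annotated start. Of 7 activators of receptor choice 2, Ebf1 and Atf5, were called and Lhx2, Ldb1, Ebf2, Ebf3 and Ebf4 were not. Of 10 genes of odorant signalling and receptor transport, 1 was called, Adcy3, which is also expressed outside the nose, while Omp, Gnal, Cnga4, Cngb1, Ano2, Rtp1, Rtp2, Ric8b and Reep1 were not. In the median of each list the level relative to the chromosome was 5.04, 3.12 and 1.44, against 0.485 over the Olfr genes and 2.41 over other coding genes.

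Sparse CpG was shared with some marked genes. Of other coding genes with 0 or 1 CpG in the RefSeq window 33 of 969 (3.41%) had an enriched region, against 0 of 622 Olfr genes in that class. With 2 to 4 CpG the counts were 127 of 2056 (6.18%) and 0 of 271, and with 5 to 9 CpG 340 of 1977 (17.2%) and 0 of 31. The median level at the TSS in these classes was 0.727, 1.08 and 1.50 times the chromosome's mean for other genes and 0.481, 0.517 and 0.633 for Olfr genes. These are counts within classes without a test, and membership of an array or of a compartment was not held equal. The CpG classes come from the RefSeq windows and the enriched regions and levels from the GENCODE TSS. For Olfr genes the class and the mark can therefore describe different positions.

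Contacts were read as observed over expected pairs at least 20 kb apart. The expectation chosen at first, the product of the coverages of both 10-kb bins with a factor for distance, gave 1.66 within Olfr clusters (1.64 to 1.67), with 1.78, 1.75, 1.65 and 1.54 in Control, TGFB1, TGFB1+miR-9-LOF, then miR-9-LOF. This product does not keep the total of a bin: over all partners on their chromosome, Olfr bins had 1.22 times the pairs that it gave, deserts 1.22 times and Vmn bins 1.39 times, and on simulated pairs with no effect within clusters it gave a ratio above 1. A balanced expectation, with bin factors fitted so that the expected ends of each bin equal its observed ends, was therefore added after seeing the data, and the comparisons below rest on it. It absorbs part of a preference that fills much of a bin's total, so the value by the product is given beside it for the summed libraries.

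Within clusters the balanced ratio was 1.11 in the summed libraries (79158 pairs, 1.10 to 1.12), and 1.11, 1.11, 1.11 and 1.12 in the 4 libraries. The ratio depended on distance. It was 0.985 at 20 to 50 kb, 0.995 at 50 to 100 kb and 1.01 at 100 to 200 kb, rose to 1.17 at 200 to 500 kb and 1.59 at 0.5 to 1 Mb, and reached 2.21 at 1 to 2 Mb and 2.50 at 2 to 5 Mb. Deserts had 0.881, 0.870, 0.924, 1.12, 1.54, 2.03 and 2.33 at the same distances, so that a rise with distance was common to both. Among Olfr clusters only those longer than 2 Mb contribute at 2 to 5 Mb, such as the largest, of 5073 kb. The median length of clusters of at least 10 genes was 851 kb, so long distances rest on the longer clusters only. Over all distances the Olfr ratio was 1.09 times that of deserts (1.08 to 1.10, an interval conditional on the total), higher in 4 of 4 libraries, and 1.23 times with the product. Vmn clusters had 0.986, 0.982, 1.03, 1.30, 1.93 and 5.46 (24 pairs) up to 2 Mb, so that from 200 kb to 2 Mb they stood above Olfr clusters in 4 of 4 libraries, although the Olfr ratio over all distances pooled was 1.02 times theirs (1.01 to 1.04). With the product the pooled value was 0.883, the other direction. Of the 23 clusters of at least 10 genes, 16 had a balanced ratio above 1, with 13 intervals above and 5 below, from 0.842 in Olfr458 to Olfr47 to 1.53 in Olfr20 to Olfr412 on chromosome 11.

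Contacts across the cluster edge were depleted. These counts took the 26 clusters of at least 300 kb, flanks of up to 500 kb without other Olfr bins, and only pairs under 500 kb apart. Pairs with both ends inside had a balanced ratio of 1.03 (1.02 to 1.04), and pairs from inside to the flank 0.821 (0.812 to 0.830). Pairs within the same flank had 1.00. Edges of Vmn clusters and deserts were not counted. The ratio from inside to the flank was 0.848, 0.835, 0.819 and 0.786 in the 4 libraries, below 1 in each. With the product the summed value was 0.949 (0.939 to 0.960), but the intervals of Control (0.968 to 1.01) and TGFB1 (0.956 to 1.00) included 1.

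Different clusters on the same chromosome met above expectation. The 4239 such pairs were 1.50 times the balanced expectation (1.45 to 1.54), with 1.52, 1.52, 1.51 and 1.45 in the 4 libraries, and 2.16 times the product. At 20 kb to 1 Mb the balanced ratio was 1.05 (0.993 to 1.11), at 1 to 5 Mb 1.55, at 5 to 20 Mb 2.27 and over 20 Mb 2.41 (2.25 to 2.58). Deserts had 1.16, 1.37, 1.12 and 1.06, so that from 1 Mb upward the arrays stood above the deserts. The Olfr ratio was 1.13 times that of deserts at 1 to 5 Mb (1.08 to 1.18), 2.03 times at 5 to 20 Mb (1.85 to 2.22) and 2.27 times over 20 Mb (2.12 to 2.44), each in 4 of 4 libraries, but 0.904 times at under 1 Mb (0.854 to 0.955). Vmn clusters had 1.38, 1.80, 2.21 and 1.82 at these distances. The Olfr ratio was 0.761 times theirs under 1 Mb (0.711 to 0.814) and 0.860 times at 1 to 5 Mb (0.806 to 0.919), higher in 0 of 4 libraries. It was 1.03 times theirs at 5 to 20 Mb, with an interval that includes 1 (0.886 to 1.20), and 1.32 times over 20 Mb (1.15 to 1.52).

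The far contacts were spread over several chromosomes. Beyond 5 Mb the balanced ratio was 2.51 on chromosome 2 (420 pairs), 2.22 on chromosome 7 (348 pairs), 2.83 on chromosome 9 (362 pairs), 1.84 on chromosome 10 (19 pairs) and 1.73 on chromosome 11 (128 pairs), above 1 in 4 of 4 libraries on each. These are the chromosomes with at least 5 such pairs expected. Deserts on these chromosomes had 0.998, 0.961, 1.01, 0.973 and 1.47. Leaving out each chromosome in turn moved the pooled 2.36 to between 2.22 and 2.45.

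**Figure D4:**
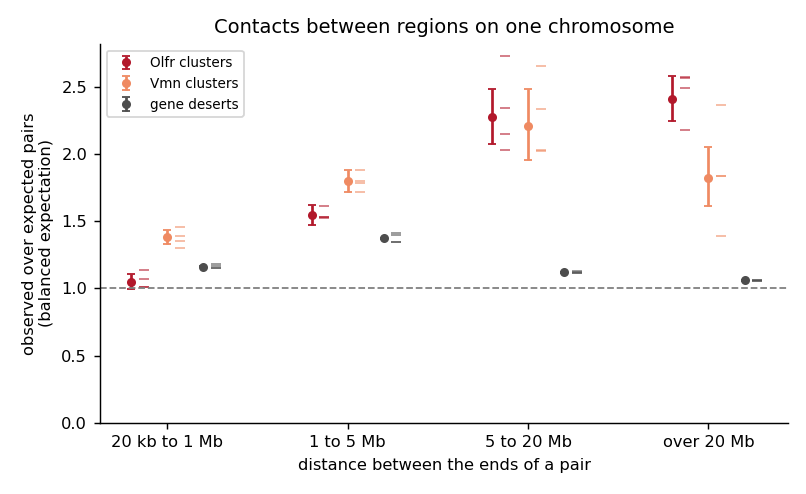
Observed over expected pairs between different regions of a chromosome under the balanced expectation (vertical axis, dashed line at 1) in 4 classes of distance (horizontal axis), with points for the summed libraries, bars for 95% exact Poisson intervals and dashes for the single libraries. Olfr clusters climb from 1.05 to 2.41 while gene deserts fall from 1.37 at 1 to 5 Mb to 1.06 over 20 Mb.

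Of 113 pairs of clusters on a chromosome, 17 had at least 20 pairs expected by the product, and 14 of these had a balanced ratio above 1, with a median of 1.83 over the 17. The 5 with the highest ratio by the product had balanced ratios of 2.64 (Olfr16 to Olfr418 with Olfr433 to Olfr220, chromosome 1), 2.83 (Olfr24 to Olfr18 with Olfr160 to Olfr986, chromosome 9), 2.33 (Olfr543 to Olfr649 with Olfr467 to Olfr519, chromosome 7), 2.80 (Olfr987 to Olfr1274-ps with Olfr1275 to Olfr1318, chromosome 2) and 2.11 (Olfr543 to Olfr649 with Olfr693 to Olfr716, chromosome 7). The clusters of the chromosome 9 pair are 17373 kb apart and were joined by 83, 62, 95 and 122 pairs in the 4 libraries, where the balanced expectation was 27.7, 20.3, 33.9 and 46.1. Those of the chromosome 2 pair were joined by 58, 44, 69 and 82 pairs where 19.2, 14.2, 24.7 and 32.4 were expected. Observed pairs exceeded the expectation in every library for both. A further contact on chromosome 2, Olfr338 to Olfr368 with the largest cluster, reached 2.25 (153 pairs, 1.90 to 2.63) over a gap of 47998 kb. The 3 pairs below 1 were Olfr1370 to Olfr1368 with Olfr1367 to Olfr1359 on chromosome 13 (0.449), Olfr56 to Olfr1380 with Olfr1378 to Olfr1375 (0.511) and Olfr30 to Olfr311 with Olfr222 to Olfr223 on chromosome 11 (0.221). The contact of Olfr338 to Olfr368 and the 3 pairs below 1 were chosen for mention after their values were seen.

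Clusters on different chromosomes were joined by 650 pairs where coverage, scaled for each pair of chromosomes, gave 405, a ratio of 1.60 (1.48 to 1.73). The libraries had 153, 109, 180 and 208 such pairs and ratios of 1.69 (1.43 to 1.98), 1.70 (1.40 to 2.05), 1.51 (1.30 to 1.75) and 1.58 (1.37 to 1.81). All 4 intervals lay above 1 and they overlapped each other. Without the 1-kb bins that overlap an Olfr gene, an alternative chosen after seeing the data because reads from near-identical receptor genes can be misplaced, the ratio was 1.67 (290 pairs, 1.48 to 1.87). Of 24 pairs of chromosomes with at least 5 pairs expected, 22 lay above 1, with a median of 1.64 and 11 intervals above 1. The highest was chromosomes 7 and 10 (31 pairs, 3.05), and the lowest chromosomes 6 and 11 (3 pairs, 0.596). Chromosomes of this line differed in their level of ends, from 0.554 to 1.66 times the autosomal mean in Control. The scaling covers whole chromosomes only, and the part of a local junction or copy change in these ratios was not tested. No pair of clusters on different chromosomes had 20 pairs expected, so none is named.

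Between chromosomes the Olfr clusters also met Vmn clusters and gene deserts above expectation. The ratio was 1.63 with Vmn clusters (1.50 to 1.76), 1.32 with gene deserts (1.31 to 1.34), 0.898 with other bins and 0.733 with bins that hold an enriched region (0.719 to 0.747). The last value was 1.09 when coverage was matched by deciles in place of the product, with 1.29, 1.09, 1.01 and 0.957 in the 4 libraries. Its direction thus depends on the expectation and, by deciles, on the library. By deciles bins with an enriched region met each other at 1.66, deserts at 1.21 and Vmn clusters at 1.08. With the product deserts met deserts at 1.25 and Vmn clusters met each other at 1.78 (127 pairs, 1.48 to 2.12). The Olfr ratio was 1.29 times that of deserts (1.19 to 1.39), higher in 4 of 4 libraries, and 0.901 times that of Vmn clusters (0.744 to 1.10). These are averages over many cells, and a contact in few cells and a weaker one in all cells cannot be told apart.

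**Figure D5:**
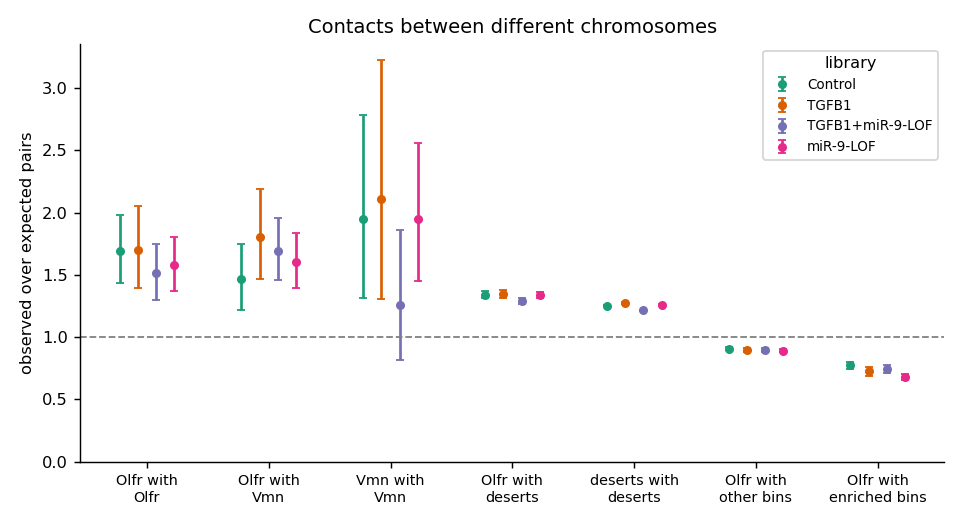
Observed over expected pairs between different chromosomes (vertical axis, dashed line at 1) for 7 combinations of regions (horizontal axis), with a point for each library and a bar for its 95% exact Poisson interval. Olfr clusters with each other lie between 1.51 and 1.70, above deserts with deserts, and Olfr clusters with enriched bins lie between 0.679 and 0.773.

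The clusters lay mostly in the gene-poor compartment. Compartments were the sign of the first principal component of each chromosome's contact matrix in 500-kb bins, oriented by coding gene density. Olfr genes counted in that density. Gene-poor names a side of the component and not a lack of genes in the arrays, whose largest held 227 genes over 5073 kb. Of 114 bins with an Olfr gene 90 were gene-poor, or 78.9% (70.3% to 86.0%, exact binomial interval), where 55.4% of all 4731 bins were. The interval takes bins as independent, but the genes of most clusters lay all on the same side, so it is too narrow. By genes, 1048 of 1128 Olfr genes (92.9%) and 90.9% of Vmn genes were in gene-poor bins, against 32.3% of all coding genes. The share of Olfr bins was 77.2%, 78.9%, 78.1% and 77.2% when the component was computed from each library alone. The largest cluster was gene-poor for all 227 genes. Many smaller clusters had no gene-poor gene, the largest of them Olfr62 to Olfr1328 on chromosome 4 (13 genes). Others with none included Olfr1416 to Olfr12 on chromosome 1, Olfr288 to Olfr279, Olfr1513 to Olfr1507 and Olfr70 to Olfr155. The correlation of the component with gene density was as low as 0.153 on chromosome 13, where the orientation is uncertain.

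Within that compartment Olfr bins met each other more often than other gene-poor bins did. Gene-poor Olfr bins met each other at 1.77 (1.62 to 1.93), other gene-poor bins at 1.49 and gene-rich bins at 0.731, while other gene-poor bins met each other at 1.36. The ratio of the first to the last was 1.31 (1.20 to 1.42), and 1.27 (1.16 to 1.38) with coverage matched by deciles. The other gene-poor bins include those of Vmn clusters. Vmn clusters met each other at 1.78 over both compartments, so a high ratio was not particular to Olfr clusters. Single pairs of bins, taken from both compartments, were at the limit of depth. Of 5881 pairs of Olfr bins on different chromosomes 3 (0.051%) were called at a false discovery rate of 0.05 by a one-sided Poisson test. Of all 10893892 pairs of bins 0.0285% were called. Among pairs of Olfr bins 0 to 2 were called when a library was left out. The 3 called with all libraries were Olfr763 to Olfr790 with Olfr382 to Olfr398 (6 pairs, 0.462 expected), Olfr1348 to Olfr1350 with Olfr55 to Olfr63 (8 pairs, 0.797 expected) and Olfr70 to Olfr155 with Olfr371 (13 pairs, 2.78 expected). The clusters Olfr55 to Olfr63, Olfr70 to Olfr155 and Olfr371 had no gene in the gene-poor compartment.

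Across conditions, the ratios to Control within and between clusters had intervals that include 1 under the balanced expectation. Contacts across the cluster edge had counting intervals of 0.831 to 0.866 in Control and 0.770 to 0.803 in miR-9-LOF, and with 1 library per condition the spread between replicates is unknown, so no difference was called. Within clusters the balanced ratio of the 3 other libraries over Control, in the same order, was 1.01 (0.984 to 1.03), 1.00 (0.984 to 1.02) and 1.01 (0.992 to 1.03). With the product these were 0.981 (0.960 to 1.00), 0.923 (0.905 to 0.942) and 0.861 (0.845 to 0.878), and deserts, at 0.928, 0.870 and 0.868, were below 1 too. Between clusters on a chromosome the balanced values were 1.00 (0.911 to 1.10), 0.997 (0.915 to 1.09) and 0.954 (0.879 to 1.04), while with the product miR-9-LOF stood at 0.870 (0.801 to 0.945). Between chromosomes they were 1.01 (0.779 to 1.29), 0.894 (0.717 to 1.12) and 0.931 (0.752 to 1.16) with the product. Differences within these intervals were not detectable at this depth. The share of ends in enriched regions also differed between the libraries, and its part in any difference was not tested.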

How the data were processed

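H3K4me3 HiChIP-seq was done on MLg cells, 1 library per condition. HiC-Pro was run by the authors at its defaults against mm10, with duplicates dropped, both ends placed on MboI fragments and no limit on the distance of a pair. The HiC-Pro version is not given in the sources used here. What the authors deposited is a line of positions for each valid pair, and these lines were counted. A mapping quality score deposited for each end served only as a filter of at least 30. The series' design text names fewer starting cells than the study's methods, which was not resolved.

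Counting used Python 3.11.15, numpy 2.4.6, scipy 1.17.1 and pandas 2.3.3, and plots matplotlib 3.10.9. Genes were the protein-coding genes of GENCODE M21 on autosomes, with the outermost annotated start as the TSS, so other starts of a gene were missed. Samples were grouped by their labelled treatment. Coverage used 10-kb bins that overlap a cluster. Expected pairs on a chromosome were the product of bin coverages and a distance factor, or balanced over 60 rounds; between chromosomes, the product of coverages from pairs between chromosomes, scaled for each pair of chromosomes. Intervals are at 95%, and since PCR reads without molecular identifiers are not independent molecules they cover counting error only. Clusters named were the 8 with the most genes, the most and least covered of at least 10 genes, and the cluster pairs with the highest ratio among those with at least 20 pairs expected. Genes named were any Olfr gene with an enriched region, the 5 with the most ends at the TSS, 10 receptors studied inside or outside the nose (Olfr151 was not analysed here), and fixed lists of regulators and markers. Genes named for lying nearest to an enriched region or inside a cluster, and those called when a library was left out, and other clusters named for their level, ratio, compartment or called bin pairs, were added after their values were seen. Members, lists and rules were chosen with earlier results of these data known. Simulated data were used for contacts within clusters (product and balanced), between clusters on a chromosome (balanced) and between chromosomes (product), and for enriched bins. Compartments, called bin pairs, coverage deciles, cluster edges and matching by GC content were not simulated. With no effect within clusters the product gave a ratio above 1 and the balanced expectation did not. The simulated pairs came from bin factors and a distance factor without compartments, the form that the balanced expectation fits. Its result there was set by that design and cannot show how it does on real contacts. The balanced expectation recovered only part of a raised contact within clusters. Alternatives changed the joining distance, minimum cluster size, bins near other TSS, reference, distance factor, coverage matching by 10 deciles, minimum distance, bin size and mapping filter, and left out each library.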

Additional observations from a re-analysis of the deposited data

How the results depend on the processing

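Of the 7 results tried, only the called bin pairs between chromosomes changed direction, when set against the share of all pairs. Comparisons with other parts were not among the 7, and some of them changed direction. Within clusters Olfr over Vmn was 0.883 by the product and 1.02 balanced. Between chromosomes Olfr clusters with enriched bins stood at 0.733 by the product and 1.09 by deciles. Pair ends in the clusters relative to their own chromosome (0.511) were 0.499 with clusters of at least 5 genes, 0.489 and 0.535 with genes joined at up to 100 and 500 kb, 0.490 without bins near other coding TSS, 0.554 relative to all autosomes, 0.459 per MboI site, 0.528 without the mapping filter, and, chosen after seeing the data, 0.565 outside enriched bins and 0.709 at like GC content, and ranged from 0.484 to 0.534 with a library left out. Contacts within clusters (1.66 by the product, which gave a ratio above 1 on simulated pairs with no effect) were 1.82 and 1.61 with joining at 100 and 500 kb, 1.76 without bins near other TSS, 1.73 with a distance factor for each chromosome, 1.62 from 50 kb, 1.63 without the mapping filter, 1.11 by deciles and 1.11 balanced (the last added after seeing the data), and 1.62 to 1.72 with a library left out. Contacts between clusters on a chromosome (2.16) were 2.33 with at least 5 genes, 2.05 and 2.94 with joining at 100 and 500 kb, 2.40 without bins near other TSS, 2.43 with a distance factor for each chromosome, 2.09 in 25-kb bins, 1.31 by deciles and 1.50 balanced (again added later), and 2.12 to 2.25 with a library left out. The balanced factors keep the total of each bin and the product does not. Why the deciles lower the values was not tested. Contacts between chromosomes (1.60) were 1.44 by deciles and 1.81 with coverage from all ends. Olfr genes with an enriched TSS (0) were 20 with the local background alone, and 0 to 1 with a library left out. Called bin pairs between chromosomes (3) were 9 of 3158 in 1-Mb bins (0.285%, against 0.204% of all 1-Mb pairs), 0 at a false discovery rate of 0.01 (against 0.0175% of all pairs), and 0 to 2 with a library left out, namely 0 without Control or without miR-9-LOF (against 0.0147% and 0.0173% of all pairs), 1 without TGFB1 and 2 without TGFB1+miR-9-LOF. The share of Olfr bins in the gene-poor compartment moved by less than its interval under its 5 alternatives. No paired analysis was possible because each condition has 1 library. Depth limits single contacts between chromosomes, since no pair of clusters had 20 pairs expected.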

Other observations

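Zdhhc5, a palmitoyltransferase gene, lies 616 kb outside the largest Olfr cluster on chromosome 2. The 10-kb bin of its TSS and the bin on each side were joined to Olfr987 to Olfr1274-ps by 8, 4, 6 and 4 pairs. These are the 4 libraries in the order used above, with 22 pairs in all. The balanced expectation gave 67.1, a ratio of 0.328 (95% exact Poisson interval 0.205 to 0.496). Counts of 4 to 8 cannot order the libraries.

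Of the ends in Olfr clusters, 17.8%, 16.0%, 19.9% and 17.9% had their partner on another chromosome, against 15.9%, 13.8%, 17.4% and 16.0% in gene deserts and 19.8%, 17.6%, 21.9% and 19.3% in Vmn clusters. In miR-9-LOF, bins with an enriched region (18.5%) and other bins (18.0%) also stood above the Olfr clusters. In Control, TGFB1 and TGFB1+miR-9-LOF they stood below the Olfr clusters. There the values were 16.2%, 14.1% and 19.6% for bins with an enriched region and 16.6%, 14.8% and 18.8% for other bins.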
